A study of Mus musculus with 20 samples.

Results

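The genes described here encode the subunits of the proteasome. They were taken as all gene symbols in the deposited tables that read Psma, Psmb, Psmc or Psmd followed by a number, without the interferon-inducible pair Psmb8 and Psmb9. The pattern found 37 genes among 51456 symbols, 17 for the proteolytic core and 20 for the regulatory cap. Averaged across all 20 libraries, 36 of them reached 1 FPKQ, 16 of the core and 20 of the cap, as did 10843 symbols in all. FPKQ is the deposited unit, read here as a level per kilobase of transcript on a scale set by a quantile. Psmb11, the thymus-specific beta subunit, fell outside with a mean of 0.00216 FPKQ, and the lowest gene inside was Psma8 with a mean of 1.55 FPKQ.

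Poly-A RNA was sequenced from cultured macrophages grown out of the bone marrow of C57BL/6 mice aged 4 to 5 months, over 6 days with 50 ng/ml of the growth factor CSF-1. The KO group (n = 5) carried the change in Trem2 that the labels call a 5bp KO, and the R47H group (n = 5) carried the R47H substitution knocked into Trem2, a receptor of macrophages and microglia. The WT group (n = 10) carried neither, and strain, age and culture were the same in the 3 groups. The design text speaks of wild-type littermates for each mutant line and of 5 animals per genotype, and the labels name no litter, so the comparison of KO with WT Rep1 to Rep5 and of R47H with WT Rep6 to Rep10 follows the replicate numbers only. P-values therefore cover the spread between these libraries. These are cultured cells and not tissue macrophages, and in bulk RNA fewer cells of a type and less RNA per cell cannot be told apart.

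The proteasome degrades proteins that carry chains of ubiquitin. Its core is a barrel of alpha rings, which gate the entrance, and beta rings, which hold the proteolytic sites. The cap sits on the barrel: its base holds a ring of ATPases that unfold the substrate, and its lid removes the ubiquitin. In macrophages the peptides it makes also feed antigen presentation, and interferon exchanges the standard catalytic subunits for inducible ones. When proteasome activity falls, cells raise all subunit genes together through the transcription factor Nfe2l1.

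Trem2 itself stood at 24.1, 23.7, 24.8, 24.1 and 23.8 FPKQ in the KO libraries and at 673, 772, 794, 496 and 527 FPKQ in the R47H libraries, against 691 to 901 FPKQ with a median of 811 in WT. Every KO library lay far below every WT library, and 3 of the 5 R47H libraries lay below the lowest WT library. A two-sided exact permutation test gave p = 6.66e-04 for KO against WT, the smallest that 3003 splits allow, and p = 0.0167 for R47H against WT. All 8 macrophage markers were present in every group, with summed levels of 32452 to 35218 FPKQ in KO, 26406 to 29495 FPKQ in R47H and 23155 to 26582 FPKQ in WT. Most of each sum was Lyz2, with means of 29652 FPKQ in KO, 23932 FPKQ in R47H and 20996 FPKQ in WT. The markers did not move together. Of the 8, 4 rose and 3 fell in KO against WT, beside 28.2% and 23.7% of all tested genes. In R47H 4 rose and 2 fell, beside 13.4% and 7.83%. Summed over its list, no marker list of dendritic, T and NK, B, stromal or erythroid cells exceeded 2.71 FPKQ in any library, and the 8 neutrophil markers summed to 98.6 to 128.6 FPKQ in KO, 86.3 to 150.3 FPKQ in R47H and 70.6 to 106.8 FPKQ in WT. Different genes made up these neutrophil sums. Csf3r averaged 55.6 FPKQ in KO, 43.1 FPKQ in R47H and 29.8 FPKQ in WT. In the same order S100a8 averaged 18.0, 24.7 and 17.9 FPKQ and S100a9 33.9, 47.5 and 33.6 FPKQ. FPKQ 1 in a transcript of 2 kb corresponded to 51.7 ± 3.82 fragments in KO (SD, n = 5), 52.5 ± 3.64 in R47H (SD, n = 5) and 60.9 ± 5.12 in WT (SD, n = 10), estimated from the steps between low values.

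Subunit genes were among the more abundant transcripts. Their median level was 94.7 FPKQ over the 16 core genes and 63.8 FPKQ over the 20 cap genes, beside 13.4 FPKQ over all tested genes, and 29 of the 36 reached 50 FPKQ. The beta ring genes lay between 76.8 and 142.6 FPKQ and the 6 ATPase genes of the base between 60.6 and 104.8 FPKQ. The highest level in the core was that of Psmb1, a structural beta subunit, at 142.6 FPKQ. The highest in the cap was that of Psmd8, a small lid subunit, at 256.4 FPKQ, with the base scaffold gene Psmd2 next at 114.2 FPKQ. The lowest cap levels belonged to the genes Psmd5, Psmd9 and Psmd10, at 9.09, 13.2 and 23.7 FPKQ. These are chaperones that help assemble the base and leave the finished particle, and the symbol pattern keeps them in the cap. Psma8, an alpha subunit of the testis, was read from as few as 39 fragments in a library, so its values are the least precise.

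**Figure D1:**
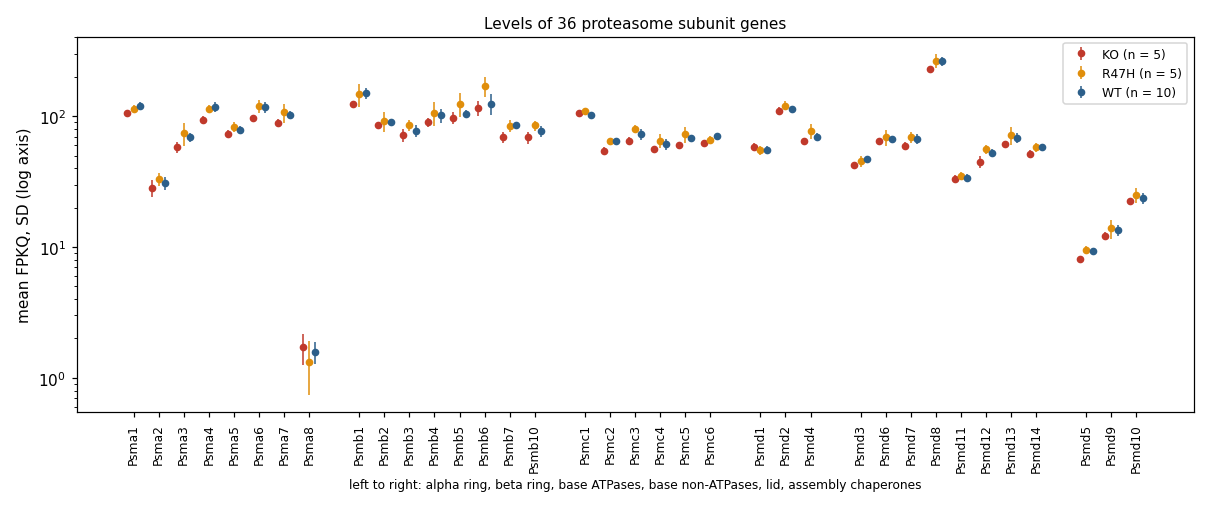
Mean level of each of the 36 subunit genes in KO, R47H and WT libraries on a log axis in FPKQ, with SD (n = 5, 5 and 10), ordered by place in the particle. Psmd8 stands highest at 256.4 FPKQ over all libraries, the assembly chaperones Psmd5, Psmd9 and Psmd10 stand lowest in the cap, and Psma8 lies near the minimum at 1.55 FPKQ.

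Promoter windows of 300 bases, 250 before and 50 after the start, were taken from RefSeq on GRCm38.p6 for 30 of the 37 genes, in 32 windows. The entries of Psma8, Psmb1, Psmb2, Psmb7, Psmc3, Psmd3 and Psmd7 were not used here. The 3 windows below are shown because their genes carry the results that follow: Psmb6 and Psmb5, the catalytic genes with the largest differences between R47H and KO, and Psma4, the gene with the largest fall in KO. Psmb5 was chosen after its values were seen. In the windows of Psmb6 (chr11:70525107-70525406, plus strand) and Psmb5 (chr14:54617946-54618245, minus strand) the capitals mark TGACNNNGC, the core of the antioxidant response element that Nfe2l1 and Nfe2l2 bind. In the window of Psma4 (chr9:54950609-54950908, plus strand) they mark CGGAAG, the core of an ETS site, read on the opposite strand.
Psmb6: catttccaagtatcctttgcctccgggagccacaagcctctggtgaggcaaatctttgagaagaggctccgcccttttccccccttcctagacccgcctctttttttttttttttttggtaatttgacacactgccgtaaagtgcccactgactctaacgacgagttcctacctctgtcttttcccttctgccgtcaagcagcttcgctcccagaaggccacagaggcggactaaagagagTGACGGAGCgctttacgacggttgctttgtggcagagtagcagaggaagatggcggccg
Psmb5: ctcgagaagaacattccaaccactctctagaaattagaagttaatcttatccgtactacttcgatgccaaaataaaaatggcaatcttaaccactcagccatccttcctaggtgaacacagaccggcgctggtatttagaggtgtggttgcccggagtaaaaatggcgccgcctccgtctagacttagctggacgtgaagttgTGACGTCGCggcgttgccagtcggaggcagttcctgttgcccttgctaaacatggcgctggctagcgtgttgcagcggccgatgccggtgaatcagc
Psma4: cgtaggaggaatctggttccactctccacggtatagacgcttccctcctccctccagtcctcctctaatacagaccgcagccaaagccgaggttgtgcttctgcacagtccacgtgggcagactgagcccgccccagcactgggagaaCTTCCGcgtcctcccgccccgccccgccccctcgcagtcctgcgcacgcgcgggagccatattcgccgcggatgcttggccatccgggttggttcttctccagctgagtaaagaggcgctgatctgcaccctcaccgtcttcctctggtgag

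The marked letters begin 9 bases before the start in Psmb6, 47 bases before it in Psmb5 and 102 bases before it in Psma4. TGACNNNGC was found on either strand in 5 of the 32 windows (15.6%), those of Psmb5, Psmb6, Psmc6, Psmd9 and Psmd12, beside 14.6% of the windows of tested genes and 12.4% of all windows. CGGAAG was found in 19 of the 32 windows (59.4%), beside 33.3% of the windows of tested genes and 16.9% of all windows. The longer form of TGACNNNGC, which is the same letters followed by A, was found in 1 window (Psmd12), beside 3.04% of all windows. The other letters searched on both strands were CCAAT in 12 of the 32 windows, GGGCGG in 18, TGACGTCA in 0, GCGC on either side of AT in 1, and TTTC followed after 2 bases by TTTC in 3. The windows of tested genes held these at 38.1%, 63.1%, 3.18%, 2.27% and 3.31%, and all windows at 37.4%, 35.7%, 1.79%, 0.971% and 3.44%, in the same order, so that GGGCGG was found in a smaller share of subunit windows (56.2%) than of windows of tested genes. A match describes letters in a window and not a bound site.

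Subunit genes of core and cap alike were lower in KO than in WT. Of the 36 genes, 17 fell and none rose (limma, Benjamini-Hochberg adjusted p under 0.05 over 10843 genes), 7 of the core and 10 of the cap. Among all tested genes 23.7% fell, 28.2% rose and 52.0% were called in either direction, so the 47.2% of subunit genes that fell lay above the share of all genes that fell. The falls were small. The median log2 difference was -0.16 over the core and -0.15 over the cap, beside 0.01 over all tested genes, and the lowest was -0.32. The log2 difference was below 0 for 33 of the 36 genes, and the exceptions were Psma8 (0.07), the ATPase gene Psmc1 (0.04) and Psmd1 (0.08), a scaffold of the base. With each library left out in turn the count stayed between 12 and 18. It was 6 with WT Rep6 to Rep10 left out, where 1993 of 10843 tested genes fell. The share of subunit genes that fell was then no larger than that of all genes. The count was 29 with libraries rescaled to equal sums, where 3539 of all tested genes fell.

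In the alpha ring 5 of 8 genes fell in KO. Psma4 (chromosome 9, 54950790 to 54958030, plus strand, GRCm38) had levels of 92.7, 95.6, 89.9, 103 and 87.4 FPKQ in KO and 122, 120.0, 114, 102 and 115 FPKQ in R47H, against 101 to 131 FPKQ with a median of 118 in WT. Only KO Rep4 reached the range of WT. The log2 difference of KO from WT was -0.32 (SE 0.061, limma adjusted p = 1.60e-04), and no alternative run ended this call. Psma6, a subunit of the same ring, stood at 96.0, 98.8, 97.3, 101 and 89.4 FPKQ in KO and at 118, 129.9, 139, 106 and 106 FPKQ in R47H, against 99.4 to 138 FPKQ with a median of 116 in WT. Its fall in KO was -0.27 on the log2 scale (SE 0.0728, limma adjusted p = 0.00359), with 1 KO library inside the WT range, and was not called when WT Rep6 to Rep10 were left out (adjusted p = 0.0718). Psma1, another ring member, stood at 107, 107, 102, 109 and 103 FPKQ in KO and 114, 123, 120.2, 107 and 108 FPKQ in R47H, against 112 to 134 FPKQ with a median of 119 in WT. Here no KO library reached the WT range, and the log2 difference was -0.19 (SE 0.0472, limma adjusted p = 0.00185). Psma3 stood at 56.9, 65.0, 61.4, 58.1 and 49.6 FPKQ in KO and 85.4, 90.3, 76.4, 59.6 and 57.6 FPKQ in R47H, against 59.2 to 75.9 FPKQ with a median of 71.7 in WT. KO and WT overlapped in 2 KO libraries, and the fall of -0.25 (SE 0.092, limma adjusted p = 0.0263) was no longer called without KO Rep1 (adjusted p = 0.0526) or KO Rep5 (adjusted p = 0.0992). Psma7 also fell, by 0.19. Psma8 gave 1.17, 1.60, 2.44, 1.80 and 1.55 FPKQ in KO and 1.48, 0.816, 2.27, 1.22 and 0.871 FPKQ in R47H, against 1.22 to 2.19 FPKQ with a median of 1.55 in WT, and the groups overlapped throughout.

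In the beta ring 2 of 8 genes fell in KO, a share near the 23.7% of all tested genes. Psmb7 (chromosome 2, 38588036 to 38644087, minus strand), which encodes the trypsin-like catalytic subunit, stood at 67.1, 77.4, 74.6, 69.1 and 59.9 FPKQ in KO and 85.4, 92.5, 94.4, 74.9 and 77.4 FPKQ in R47H, against 77.2 to 91.8 FPKQ with a median of 86.6 in WT. KO Rep2 alone touched the WT range, and the log2 difference was -0.29 (SE 0.0625, limma adjusted p = 4.99e-04), which no alternative run ended. Psmb1 (chromosome 17, 15475021 to 15499751, minus strand) stood at 121, 131, 109.8, 126 and 127 FPKQ in KO and 136, 178, 179.8, 119.6 and 125 FPKQ in R47H, against 133 to 182 FPKQ with a median of 149 in WT. All 5 KO libraries lay below all 10 WT libraries, while R47H spanned both ranges. The log2 difference of KO was -0.28 (SE 0.0893, limma adjusted p = 0.0125), and it was not called when WT Rep6 to Rep10 were left out (adjusted p = 0.0703). The genes of the other catalytic subunits, Psmb5 and Psmb6, gave log2 differences of -0.10 and -0.09 in KO and were not called (limma adjusted p = 0.359 and 0.587).

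**Figure D2:**
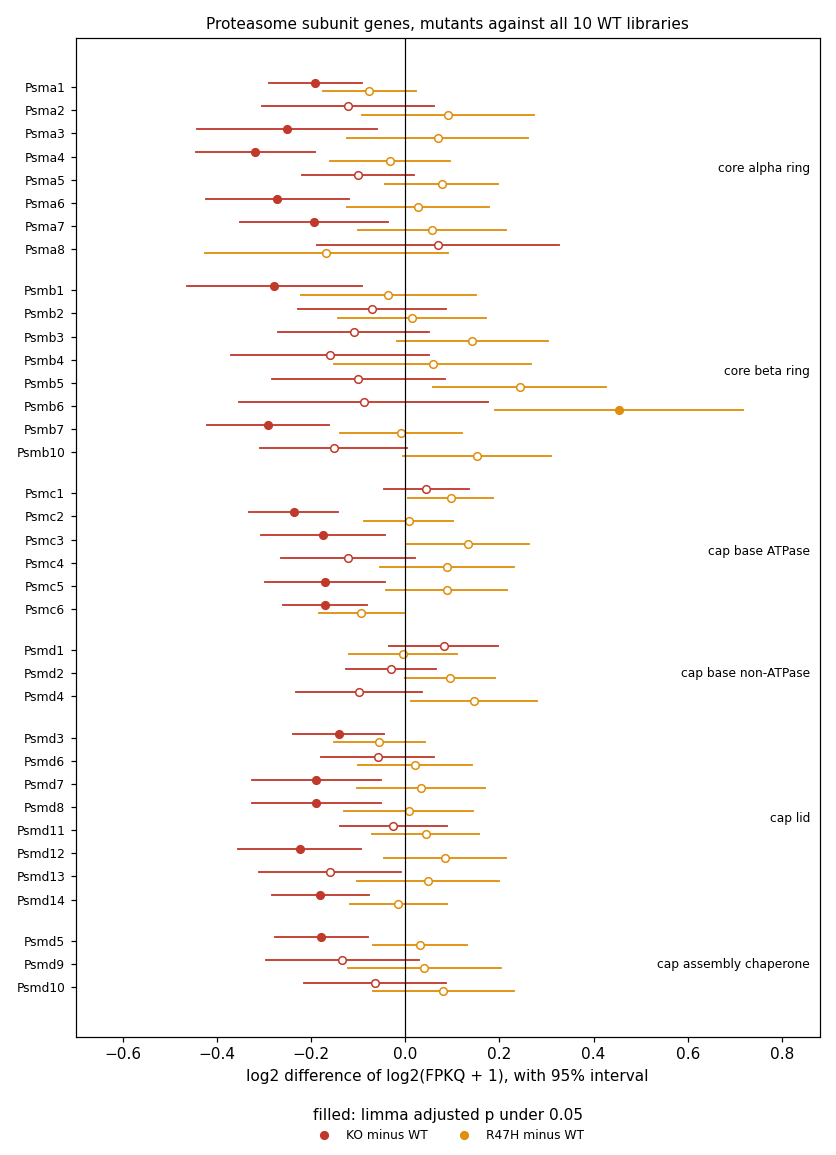
Log2 differences of KO and of R47H from all 10 WT libraries for each subunit gene, with 95% intervals from limma, grouped by place in the particle. Filled points passed an adjusted p of 0.05. In KO 17 points are filled, all left of 0 and the furthest at -0.32 (Psma4). In R47H the filled point is Psmb6 at 0.45.

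In the cap 4 of the 6 ATPase genes fell in KO, with none of the 3 other base genes, 5 of the 8 lid genes and 1 of the 3 assembly chaperones. Psmc6 (chromosome 14, 45329788 to 45349705, plus strand), an ATPase, stood at 61.4, 63.3, 60.9, 63.1 and 63.8 FPKQ in KO and 68.3, 65.2, 67.7, 58.8 and 70.6 FPKQ in R47H, against 65.2 to 76.8 FPKQ with a median of 71.2 in WT. KO did not overlap WT, and the log2 difference was -0.17 (SE 0.0432, limma adjusted p = 0.00226), with an adjusted p of 0.0531 when WT Rep6 to Rep10 were left out. The largest fall among the ATPases was that of Psmc2, at -0.24. Psmd8 (chromosome 7, 29174188 to 29180701, minus strand) stood at 223, 235, 240.5, 233 and 224 FPKQ in KO and 256, 299, 304, 229 and 243 FPKQ in R47H, against 227 to 291 FPKQ with a median of 267 in WT. KO overlapped only the 2 lowest WT libraries, and the fall of -0.19 (SE 0.0659, limma adjusted p = 0.0206) was lost without KO Rep1 (adjusted p = 0.0511) and with WT Rep1 to Rep5 left out (adjusted p = 0.0993). Other lid genes that fell were Psmd12 (-0.22), Psmd7 (-0.19), Psmd3 (-0.14) and Psmd14 (-0.18), which encodes the enzyme that cuts ubiquitin off the substrate. The ubiquitin receptor gene Psmd4 (-0.10) and the base scaffold gene Psmd2 (-0.03) were not called. Psmd5, the chaperone gene, stood at 7.88, 7.89, 8.53, 8.60 and 7.73 FPKQ in KO and 10.52, 9.50, 9.07, 9.83 and 8.92 FPKQ in R47H, against 8.38 to 10.2 FPKQ with a median of 9.23 in WT. The log2 difference of KO was -0.18 (SE 0.0476, limma adjusted p = 0.00337), with 2 KO libraries inside the WT range, and an adjusted p of 0.0603 when WT Rep6 to Rep10 were left out.

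Across the 36 genes, KO and WT libraries did not overlap for 3 genes, all lower in KO (Psma1, Psmb1 and Psmc6), while 13.3% of all tested genes were separated and lower and 15.4% separated and higher. The share of separated subunit genes was thus below that of all genes.

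**Figure D3:**
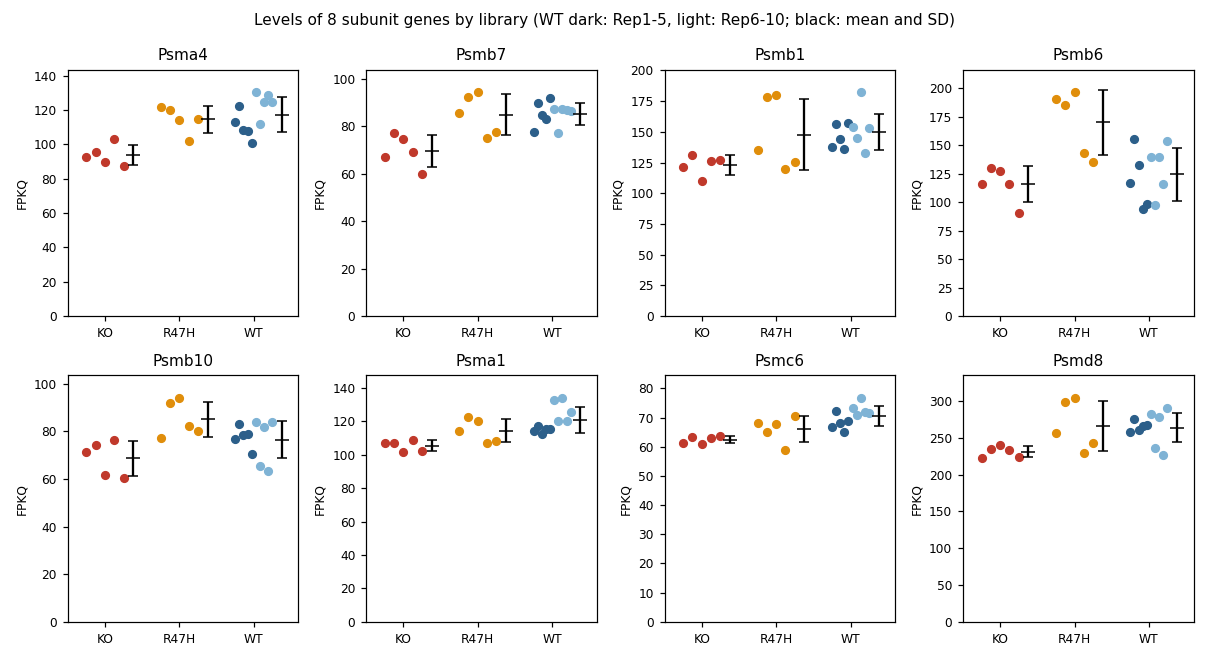
FPKQ in each library for 8 subunit genes, with the mean and SD in black (KO and R47H n = 5, WT n = 10) and the WT sets in dark (Rep1 to Rep5) and light blue (Rep6 to Rep10). Psma1, Psmb1 and Psmc6 show KO below all WT libraries, and Psmb6 shows R47H Rep1 to Rep3 above 180 FPKQ with Rep4 at 143 and Rep5 at 135 FPKQ.

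Summed over genes, the core stood at 1257, 1329.8, 1275, 1332 and 1148 FPKQ in KO and 1529, 1720.2, 1763, 1325 and 1379 FPKQ in R47H, against 1327 to 1563 FPKQ with a median of 1412 in WT. The cap stood at 1236, 1252, 1288, 1292 and 1267 FPKQ in KO and 1425, 1487, 1586, 1298 and 1348 FPKQ in R47H, against 1316 to 1465 FPKQ with a median of 1367 in WT. All KO cap sums lay below all WT cap sums, and 2 KO core sums just exceeded the lowest WT core sum. The KO means were 87.7% of the WT mean for the core and 91.7% for the cap, and the R47H means were 107% and 103%. The R47H direction depends on the scale. As a share of all FPKQ in a library the core was 0.204 ± 0.00941% in KO (SD, n = 5) and 0.241 ± 0.0154% in R47H (SD, n = 5), against 0.247 ± 0.00991% in WT (SD, n = 10). The cap was 0.204 ± 0.00295% in KO and 0.224 ± 0.00589% in R47H (SD, n = 5 each), against 0.236 ± 0.00728% in WT (SD, n = 10), so that the means of both mutants lay below those of WT, with R47H overlapping WT. On the deposited scale R47H Rep2 and Rep3 were the highest of all 20 libraries in both sums, and R47H Rep4 and Rep5 were the lowest of their group. Rep4 and Rep5 were also the R47H libraries with the least Trem2. As a share of the library R47H Rep2, Rep4 and Rep5 lay below every WT library in the cap, and R47H Rep4 and Rep5 did so in the core. WT Rep8 lay above R47H Rep2 and Rep3 in the core share.

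Ribosomal protein genes and markers of dividing cells were read beside these sums. The 76 ribosomal protein genes, a list chosen after the subunit values were seen, summed to 34319.6 to 47536 FPKQ in KO, 42830.3 to 60806 FPKQ in R47H and 38928 to 53633 FPKQ in WT. The lowest sum was that of KO Rep5, the library with the lowest core sum, and the highest were those of R47H Rep2 and Rep3. Of these genes 17 fell and 1 rose in KO against WT, with a median log2 difference of -0.15. That count is no larger a share than the 23.7% of all tested genes that fell. The core sum was 2.97 ± 0.218% of the ribosomal protein gene sum in KO (SD, n = 5), 3.04 ± 0.122% in R47H (SD, n = 5) and 3.12 ± 0.192% in WT (SD, n = 10). The WT sets did not overlap in this share, with 2.88 to 2.99% in WT Rep1 to Rep5 and 3.22 to 3.41% in WT Rep6 to Rep10. KO ran from 2.80 to 3.34%, around the range of WT Rep1 to Rep5, and R47H from 2.83 to 3.12%, wholly below WT Rep6 to Rep10. The 10 markers of dividing cells all fell in both mutants and summed to 47.6 to 57.2 FPKQ in KO and 103 to 151 FPKQ in R47H, against 236 to 291 FPKQ in WT. Set beside the subunit sums, the order of libraries was mixed. R47H Rep2 had the lowest R47H sum of these markers, and KO Rep5, the lowest in the core, had the highest KO sum. R47H Rep1 and Rep3 stood above R47H Rep4 and Rep5 in the markers, the core and the cap. KO had the lowest group mean in the markers, the core and the cap. Mki67, which marks cycling cells, averaged 3.97 ± 0.142 FPKQ in KO (SD, n = 5) and 8.19 ± 1.65 FPKQ in R47H (SD, n = 5), against 19.2 ± 1.64 FPKQ in WT (SD, n = 10). The part of either set in the subunit differences was not tested.

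**Figure D4:**
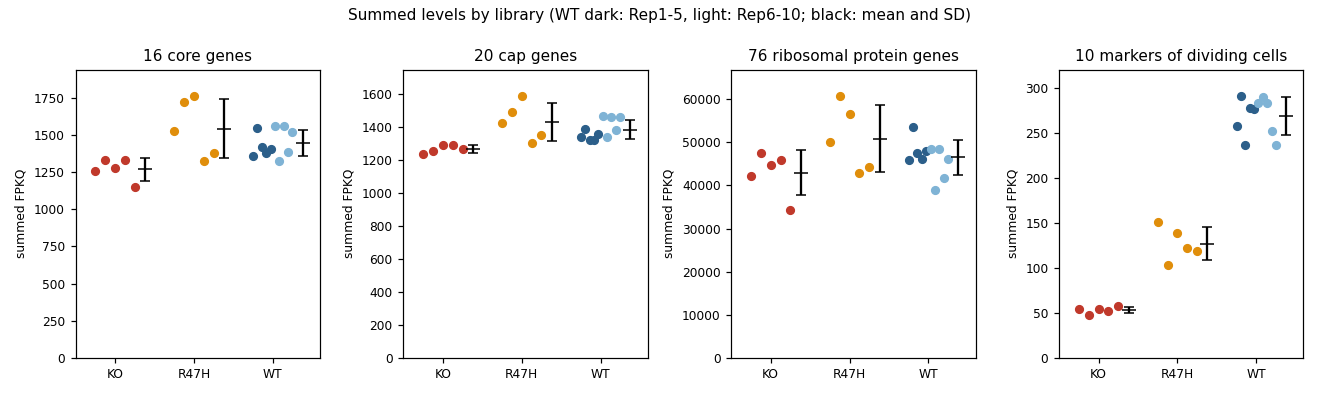
Summed FPKQ in each library for the 16 core genes, the 20 cap genes, 76 ribosomal protein genes and 10 markers of dividing cells, with mean and SD in black (KO and R47H n = 5, WT n = 10; WT Rep1 to Rep5 dark, Rep6 to Rep10 light). KO cap sums end at 1292 FPKQ and WT cap sums begin at 1316 FPKQ, and R47H Rep2 and Rep3 are highest in the core, cap and ribosomal panels.

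Against WT Rep1 to Rep5 alone, in a model of 4 groups, 10 of the 36 genes fell in KO and none rose, 4 of the core and 6 of the cap. Among all tested genes 19.6% fell and 24.7% rose (44.3% in either direction), beside 27.8% of subunit genes that fell. All 10 were among the 17 called against all WT libraries: Psma1, Psma3, Psma4, Psmb7, Psmc2, Psmc6, Psmd3, Psmd5, Psmd8 and Psmd14. The largest were those of Psmb7 (-0.30, SE 0.0732, limma adjusted p = 0.00258), Psma3 (-0.28), Psma4 (-0.24, SE 0.0609, limma adjusted p = 0.00357) and Psmd8 (-0.20). The median log2 difference was -0.17 over the core and -0.09 over the cap, beside 0.02 over all tested genes. The groups did not overlap for 6 genes (Psma1, Psmb1, Psmb7, Psmc6, Psmd3 and Psmd8), beside 16.3% of all tested genes separated and lower and 20.2% separated and higher. Psma6 (-0.17) and Psmb1 (-0.25) just missed the threshold (limma adjusted p = 0.0617 and 0.0619). This count depended on single libraries: it was 4 without KO Rep1 or WT Rep2, 5 without WT Rep3, Rep4 or Rep5, and 6 without KO Rep2 or KO Rep5. In these runs 1901 to 2007 of 10843 tested genes fell, a larger share than that of the subunit genes. The calls of Psma4 and Psmb7 held in every alternative run.

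In R47H against all WT libraries 1 of the 36 genes rose and none fell, while 13.4% of all tested genes rose and 7.83% fell (21.2% in either direction), so the subunit genes were called less than the background. The gene was Psmb6 (chromosome 11, 70525367 to 70527858, plus strand), which encodes the caspase-like catalytic subunit and whose promoter window is shown above. It stood at 191, 185, 197, 143 and 135 FPKQ in R47H and 116, 129.9, 127, 116 and 90.9 FPKQ in KO, against 94.1 to 156 FPKQ with a median of 125 in WT. R47H Rep1 to Rep3 lay above every WT library and R47H Rep4 and Rep5 lay within the WT range. The log2 difference of R47H was 0.45 (SE 0.127, limma adjusted p = 0.0133), and it was not called with library weights (0.35, adjusted p = 0.1004) or with WT Rep1 to Rep5 left out (0.39, adjusted p = 0.0563). The count of called subunit genes, all higher, was 4 without R47H Rep4 and 2 without R47H Rep1, R47H Rep5, KO Rep5 or WT Rep6. In these runs 1383 to 1507 of 10843 tested genes were higher, a larger share than that of the subunit genes. Psmb5, the chymotrypsin-like catalytic gene, stood at 108, 142, 161, 110.1 and 103 FPKQ in R47H and 94.997, 93.4, 102, 110.1 and 83.9 FPKQ in KO, against 90.3 to 117 FPKQ with a median of 103 in WT. Its log2 difference of 0.24 (SE 0.0881, limma adjusted p = 0.0546) was not called, and R47H Rep2 and Rep3 exceeded the WT range. The third catalytic gene, Psmb7, gave -0.01 (95% interval -0.14 to 0.12).

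The 4 genes with the largest falls in KO against WT, Psma4, Psmb7, Psmb1 and Psma6, gave R47H differences from WT that were not called on the deposited scale: -0.03 for Psma4 (95% interval -0.16 to 0.09), -0.01 for Psmb7 (-0.14 to 0.12), -0.04 for Psmb1 (-0.22 to 0.15) and 0.03 for Psma6 (-0.12 to 0.18). Psma4 was called lower in R47H with libraries rescaled to equal sums (-0.15, limma adjusted p = 0.0464) and with quantile normalization (-0.16, limma adjusted p = 0.0459). Against WT Rep6 to Rep10 it gave -0.23 and -0.24 under these settings (limma adjusted p = 0.00267 and 0.00216), beside -0.12 on the deposited scale, where it was not called. Psma6 was likewise called lower against WT Rep6 to Rep10 under both settings (-0.19 each). KO and R47H were set here against the same WT libraries, so the 2 sets of values are not independent. The R47H medians were 0.06 over the core and 0.04 over the cap, beside 0.04 over all tested genes, and the sign depends on the scale: with libraries rescaled to equal sums the cap median was -0.075 and that of all genes -0.07, with 1 gene called higher and 5 lower. No subunit gene was free of overlap between R47H and WT, beside 3.77% of all tested genes separated and higher and 3.14% separated and lower.

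Against WT Rep6 to Rep10 alone 2 subunit genes fell in R47H and none rose, beside 8.40% of all tested genes that fell and 12.7% that rose (21.1% in either direction). They were Psma1 and Psmc6, whose values in each library are given above. For Psma1 the R47H libraries ran from 107 to 123 FPKQ, against 120.0 to 134 FPKQ in WT Rep6 to Rep10, with a log2 difference of -0.14 (SE 0.0455, limma adjusted p = 0.0268). For Psmc6 all R47H libraries, at most 70.6 FPKQ, lay below WT Rep6 to Rep10, at least 71.0 FPKQ (log2 difference -0.14, SE 0.0455, limma adjusted p = 0.0324). It was the only subunit gene without overlap there, beside 5.39% of all tested genes separated and lower and 7.50% separated and higher. Both calls were lost without WT Rep6 or WT Rep8 (count 0) and with only the groups compared in the fit, that of Psma1 also without R47H Rep4 or Rep5, and that of Psmc6 also without R47H Rep2 or Rep4. Without R47H Rep4 the count was 1 gene higher and none lower, and without R47H Rep5 it was 2 higher and 1 lower. Psmb6 gave 0.39 (SE 0.148, limma adjusted p = 0.0640) and was not called. Psma1 and Psmc6 were also among the 10 genes that fell in KO against its own set, 20% of those and 100% of the 2 R47H calls. The groups set against each other in these 2 comparisons share no library. Both comparisons came from 1 fit over all 20 libraries, with a shared estimate of the spread. The overlap of calls over all tested genes was not counted.

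**Figure D5:**
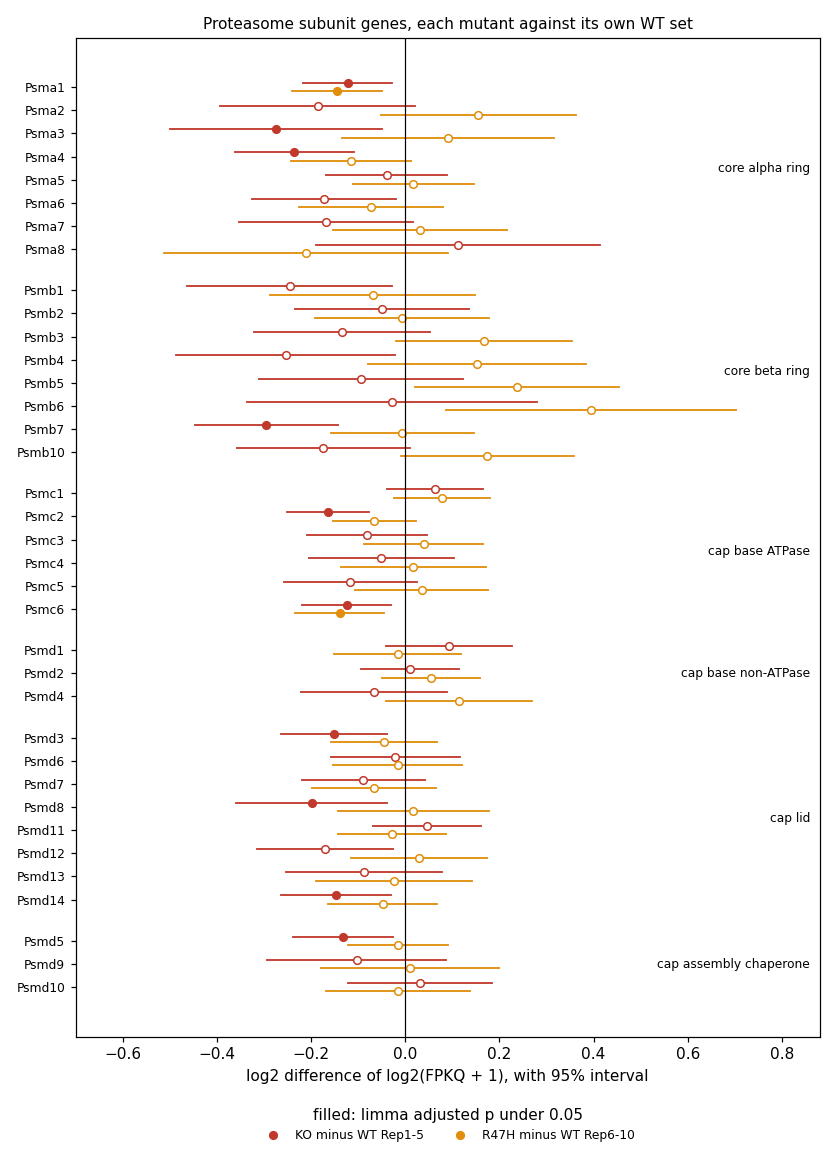
Log2 differences of KO from WT Rep1 to Rep5 and of R47H from WT Rep6 to Rep10 for each subunit gene, with 95% intervals from limma; filled points passed an adjusted p of 0.05. In KO 10 points are filled, all left of 0, and in R47H the filled points are Psma1 and Psmc6, both at -0.14.

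The WT sets were compared in the same genes. In WT Rep6 to Rep10 against WT Rep1 to Rep5, 1 of the 36 rose (Psmc2, 0.15, limma adjusted p = 0.0433) and none fell, beside 3.63% of all tested genes that rose and 2.88% that fell (6.51% in either direction). The log2 difference was above 0 for 28 of the 36 genes, 10 of the core and 18 of the cap, with medians of 0.05 over the core and 0.09 over the cap. The size of the cap median equals that of KO against WT Rep1 to Rep5 (-0.09). With library weights 12 genes were called, all higher in WT Rep6 to Rep10. Calls over all tested genes also grew with the weights, to 1175 higher and 1046 lower, beside 394 and 312 without them. None was called when KO Rep2 or any WT library but Rep1, Rep2 and Rep7 was left out, and 2 were without KO Rep5, WT Rep7, R47H Rep3 or R47H Rep4.

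Set directly against KO, R47H had 20 of the 36 genes higher and none lower, 10 of the core and 10 of the cap, beside 22.8% of all tested genes higher and 18.0% lower (40.7% in either direction). The median log2 difference was 0.25 over the core and 0.19 over the cap, beside 0.03 over all tested genes. The largest was that of Psmb6 (0.54, SE 0.147, limma adjusted p = 0.00589; 0.39, adjusted p = 0.0576 with library weights), followed by Psmb5 (0.34, SE 0.102, limma adjusted p = 0.0109) and Psma3 (0.32, SE 0.106, limma adjusted p = 0.0205), whose call was lost without KO Rep5, R47H Rep1 or R47H Rep2. The groups did not overlap for 7 genes, all higher in R47H: Psma6, Psmb6, Psmb10, Psmc2, Psmc3, Psmd5 and Psmd12, beside 12.3% of all tested genes separated and higher and 10.8% separated and lower. Psma8 was the lowest, at -0.24 (limma adjusted p = 0.191). The count was 8 with library weights, where 2044 of 10843 tested genes were higher, a share near that of the subunit genes. It was 13 with only these 2 groups in the fit, where 1981 of all tested genes were higher.

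The direct test of whether the 2 own-set effects differ called none of the 36 genes, beside 8.35% of all tested genes higher and 6.03% lower (14.4% in either direction). At an unadjusted p under 0.05 from limma there were 7, all of the core: Psma2, Psma3, Psmb3, Psmb4, Psmb5, Psmb7 and Psmb10, with differences of 0.29 to 0.41 and adjusted p from 0.0667 to 0.135. At that unadjusted cutoff 3254 of the 10843 tested genes passed, a larger share than that of the 36 subunit genes. The medians were 0.24 over the core, 0.08 over the cap and 0.01 over all tested genes. Leaving out R47H Rep4 gave 4 calls, leaving out WT Rep1 or R47H Rep5 gave 2, and leaving out KO Rep2, KO Rep4 or WT Rep6 gave 1. Without R47H Rep4, 1150 of all tested genes were higher and 787 lower. The separate effects of KO and R47H on single subunit genes against their own WT sets are thus not shown to differ.

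Psmb10 is the inducible catalytic subunit that the symbol pattern keeps, and it replaces Psmb7 in the immunoproteasome. It stood at 71.2, 74.3, 61.7, 76.5 and 60.4 FPKQ in KO and at 77.3, 91.8, 94.1, 82.3 and 80.1 FPKQ in R47H, against 63.3 to 84.0 FPKQ with a median of 78.7 in WT. All R47H libraries lay above all KO libraries, and both overlapped WT. It was called in R47H against KO (0.30, SE 0.0872, limma adjusted p = 0.00853), a call lost with library weights (0.21, adjusted p = 0.0622), and not against WT in KO (-0.15, adjusted p = 0.0968) or in R47H (0.15, adjusted p = 0.163). Psmb8, which replaces Psmb5, averaged 91.5 ± 13.7 FPKQ in KO (SD, n = 5) and 106 ± 12.8 FPKQ in R47H (SD, n = 5), against 103 ± 12.1 FPKQ in WT (SD, n = 10). Psmb9, which replaces Psmb6, averaged 30.6 ± 7.01 FPKQ in KO and 36.1 ± 3.37 FPKQ in R47H (SD, n = 5 each), against 34.1 ± 4.80 FPKQ in WT (SD, n = 10). Neither was called against all WT libraries, and both fell in KO against WT Rep1 to Rep5 (-0.29 and -0.31, limma adjusted p = 0.0238 and 0.0403). Both of these calls were lost without WT Rep2, KO Rep3 or KO Rep5, and that of Psmb9 also without WT Rep3, Rep4 or Rep5. WT Rep6 to Rep10 lay below WT Rep1 to Rep5 in both genes (-0.29 to -0.22), without a call. Neither gene was called in R47H against KO (0.21 to 0.26).

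Within a library the ratio of an inducible gene to its standard counterpart does not depend on the scale. The ratio of Psmb8 to Psmb5 was 0.947 ± 0.135 in KO (SD, n = 5), 0.864 ± 0.118 in R47H (SD, n = 5) and 0.998 ± 0.105 in WT (SD, n = 10). The WT sets did not overlap in it, with 0.996 to 1.15 in WT Rep1 to Rep5 and 0.796 to 0.960 in WT Rep6 to Rep10. That of Psmb9 to Psmb6 was 0.266 ± 0.0585 in KO, 0.216 ± 0.0344 in R47H and 0.282 ± 0.0658 in WT. That of Psmb10 to Psmb7 was 0.993 ± 0.108 in KO, 1.01 ± 0.0707 in R47H and 0.900 ± 0.0886 in WT. In all 3 ratios the ranges of KO, R47H and the 10 WT libraries overlapped. Psmb9 was thus the inducible gene with the lowest level relative to its counterpart, in each group.

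Genes that assemble, activate or serve the proteasome were read from lists outside the symbol pattern. Of the 5 tested assembly chaperones of the core and base, 2 fell in KO and none was called in R47H, beside the same shares of all tested genes as above. Psmg1 averaged 8.04 ± 0.792 FPKQ in KO (SD, n = 5) and 10.4 ± 1.80 FPKQ in R47H (SD, n = 5), against 10.3 ± 0.675 FPKQ in WT (SD, n = 10), and all KO libraries lay below all WT libraries (log2 difference -0.32, limma adjusted p = 0.00112). Psmg3, another assembly chaperone gene of this list, gave -0.27 in KO (limma adjusted p = 0.0183), a call lost without KO Rep3 or KO Rep5. Pomp, which matures the core, gave -0.14 in KO and 0.08 in R47H and was not called. The cap genes outside the pattern, Sem1 and the ubiquitin receptor gene Adrm1, gave -0.20 and -0.02 in KO and were not called either.

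Of the 5 tested genes for activators and an inhibitor, 1 rose and 2 fell in KO against all WT libraries. In R47H 1 rose and none fell. Among all tested genes 28.2% rose and 23.7% fell in KO, and 13.4% rose in R47H. None of the 5 was called in KO against WT Rep1 to Rep5 or in R47H against WT Rep6 to Rep10. Psme1 and Psme2, the subunits of the interferon-inducible activator ring, had levels of 157, 151, 124, 174 and 142 FPKQ and of 151, 139, 132, 167 and 121 FPKQ in KO. In R47H they had 206, 214, 195, 190.3 and 187 FPKQ and 185, 196, 211, 148 and 185 FPKQ, against medians of 169 and 160.3 FPKQ in WT. Psme1 fell in KO (-0.20, SE 0.0687, limma adjusted p = 0.0200) and rose in R47H (0.22, SE 0.0687, limma adjusted p = 0.0290). The rise was not called with libraries rescaled to equal sums and was lost without R47H Rep1 or Rep2, and the fall was lost without KO Rep3 or Rep5 and when WT Rep6 to Rep10 were left out. Psme2 fell in KO (-0.23, limma adjusted p = 0.0321), a call lost without any of KO Rep2, Rep3 or Rep5 or WT Rep6, Rep8 or Rep10, and gave 0.15 in R47H. Psme4, a single-chain activator, rose in KO (0.20, limma adjusted p = 0.0242), a call lost without KO Rep1, when WT Rep6 to Rep10 were left out and with libraries rescaled to equal sums.

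Of the 10 tested genes for associated enzymes and shuttles, 4 fell and 1 rose in KO and none was called in R47H, beside 23.7% and 28.2% of all tested genes that fell and rose in KO and 21.2% called in R47H. Uchl5, a deubiquitinase bound to the cap, stood at 15.8, 17.1, 19.3, 17.9 and 19.0 FPKQ in KO and 24.7, 20.7, 22.1, 18.6 and 19.9 FPKQ in R47H, against 20.3 to 26.1 FPKQ with a median of 23.7 in WT. KO and WT did not overlap (log2 difference -0.37, SE 0.0657, limma adjusted p = 7.20e-05). Txnl1, a thioredoxin-like protein of the cap, gave -0.28 in KO (limma adjusted p = 1.15e-04). No alternative run ended these calls of Uchl5 and Txnl1. The gene that rose was AI314180, listed by RefSeq as Ecpas, whose protein binds the proteasome as an adaptor. It stood at 20.4, 20.3, 22.5, 20.3 and 21.5 FPKQ in KO and 20.5, 18.1, 20.7, 20.5 and 20.1 FPKQ in R47H, against 17.3 to 21.1 FPKQ with a median of 18.1 in WT. All KO libraries lay above every WT library except WT Rep9, and the log2 difference of 0.19 (SE 0.0459, limma adjusted p = 0.00184) was lost with libraries rescaled to equal sums (0.11, adjusted p = 0.136).

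Among 6 genes for the transcriptional control of the proteasome, 3 rose and 1 fell in KO and 3 rose in R47H, beside 28.2% of all tested genes that rose and 23.7% that fell in KO and 13.4% that rose in R47H. Nfe2l1, whose protein drives subunit genes when the proteasome is short, stood at 49.5, 47.5, 54.4, 51.1 and 48.8 FPKQ in KO and 62.8, 59.0, 63.1, 58.4 and 55.9 FPKQ in R47H, against 52.0 to 57.5 FPKQ with a median of 55.1 in WT. It fell in KO (-0.13, SE 0.0384, limma adjusted p = 0.00732), and it rose in R47H (0.12, SE 0.0384, limma adjusted p = 0.0324) on the deposited scale, where rescaling to equal sums gave -0.0024 in R47H. The KO call was lost with WT Rep1 to Rep5 left out (adjusted p = 0.0641). The R47H call was also lost with either WT set left out and without WT Rep7 or R47H Rep1, Rep2 or Rep3. R47H exceeded KO (0.25, limma adjusted p = 1.79e-04), and no R47H library reached the KO range. Ngly1, the enzyme that trims sugars from the Nfe2l1 protein and so activates it, stood at 14.4, 14.8, 15.4, 15.2 and 13.0 FPKQ in KO and 14.0, 13.2, 14.2, 12.8 and 14.7 FPKQ in R47H, against 9.13 to 12.3 FPKQ in WT. Neither mutant overlapped WT, with log2 differences of 0.38 in KO and 0.30 in R47H (limma adjusted p = 2.13e-05 and 9.05e-04). Nfe2l2, the oxidative stress factor, stood at 242, 243, 243, 242 and 269.5 FPKQ in KO and 271, 243, 235, 247 and 259 FPKQ in R47H, against 178 to 227 FPKQ in WT, again with no overlap (0.32 and 0.34, limma adjusted p = 1.21e-04 and 2.82e-04). WT Rep6 to Rep10 were themselves above WT Rep1 to Rep5 in Nfe2l2 (0.23, limma adjusted p = 0.00465), and against its own set the rise was 0.44 in KO and 0.22 in R47H.

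Of the ubiquitin genes, Ubb and Rps27a are described. Ubb, a stress-responsive polyubiquitin gene, stood at 859, 825, 855, 916 and 827 FPKQ in KO and 756, 798, 803, 739 and 786 FPKQ in R47H, against 599 to 747 FPKQ with a median of 682 in WT. It rose in KO (0.34, SE 0.0539, limma adjusted p = 2.13e-05) and in R47H (0.19, SE 0.0539, limma adjusted p = 0.0126), where the R47H call was lost with libraries rescaled to equal sums and with WT Rep1 to Rep5 left out. Rps27a, which encodes ubiquitin fused to a ribosomal protein, stood at 868, 933, 916, 919 and 652 FPKQ in KO and 1133, 1364, 1371, 889.7 and 961 FPKQ in R47H, against 942 to 1326 FPKQ with a median of 1138 in WT. It fell in KO (-0.41, SE 0.103, limma adjusted p = 0.00203), with no overlap with WT, and gave -0.01 in R47H.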

How the data were processed

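Per the labels' protocols, strand-specific poly-A libraries were read as pairs of 75 bases. The authors deposited 1 table per library of values called FPKQ. Their definition is not stated, and they were handled as FPKM values that the authors put on a quantile scale before they deposited them, read from the values: protein-coding genes had a 71.5th percentile of 9.98 to 10.03 in each library. The submitters' processing notes name RSEM and GRCm38, with no versions. RSEM divides fragments between similar sequences, and the 4 pseudogene symbols of subunit genes had means of at most 0.111 FPKQ.

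Between 85.9% and 89.7% of low values were whole multiples of a fragment (tolerance 0.1), and effective lengths are unknown, so no count test was run. Genes whose mean reached 1 FPKQ were tested as log2(FPKQ + 1), which understates changes of low genes, with limma 3.58.1 in R 4.3.3 (lmFit, eBayes with a trend). A model of 3 groups gave KO and R47H against WT and R47H against KO, and a model of 4 groups, with WT in 2 sets, gave the own-set effects, their difference and the WT sets. Benjamini-Hochberg adjustment ran over 10843 genes, and calls needed an adjusted p under 0.05. Intervals are 95%. On simulated data the test was checked for KO against WT. Trem2 was tested by exact permutation of mean log2 values. Coordinates came from GENCODE M21 on GRCm38 and promoters from RefSeq. Summaries were made with scipy 1.17.1, pandas 2.3.3 and numpy 2.4.6 under Python 3.11.15.

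The genes and lists were chosen with earlier results of these data known. Values are given for Psmb10, the 4 largest called rises and falls in each mutant comparison with WT, and the highest and lowest levels of core and cap. Some genes of the other lists are not reported here. From each of these lists up to 3 genes with the smallest adjusted p were named, and Psmb5 and the other genes named beside a count were added after their values were seen. Alternatives changed the pseudocount, filter, scaling, moderation, library weights, groups in the fit, replicate block, WT set and each library in turn.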

Additional observations from a re-analysis of the deposited data

Results flagged for a closer look

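Of 96 groups of libraries looked at, 5 held a library far from the others, and chance flags about 1 in 20 groups. KO Rep5 stood apart 3 times. It had 40.8 FPKQ of Sem1, a small lid subunit, where the other KO libraries had 71.8 to 77.6 FPKQ, and 652 FPKQ of Rps27a, where the others had 868 to 933 FPKQ. It had 269.5 FPKQ of Nfe2l2, where the others had 242 to 243 FPKQ. WT Rep8 had 182 FPKQ of Psmb1, where the other WT libraries had 133 to 157 FPKQ. R47H Rep2 had 18.1 FPKQ of AI314180, where the other R47H libraries had 20.1 to 20.7 FPKQ.

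Of 68 genes tested for a difference between the effect of R47H against WT Rep6 to Rep10 and the effect of KO against WT Rep1 to Rep5, 7 passed, none of them among the 36 subunit genes, while 14.4% of all tested genes were called in this comparison, a larger share. The difference was 0.43 for Psmb8 (limma adjusted p = 0.0450), 0.55 for Psmb9 (limma adjusted p = 0.0361) and 0.34 for Psme1 (limma adjusted p = 0.0439), all products induced by interferon. It was 0.28 for Nfe2l1 (limma adjusted p = 0.00458), -0.21 for Nfe2l2 (limma adjusted p = 0.0320), -0.29 for Ubb (limma adjusted p = 0.0118) and 0.52 for Rps27a (limma adjusted p = 0.0441). Those of Nfe2l1 and Ubb held in all 30 alternatives run. The others were each lost in 10 or more of 30, among them those without WT Rep2, Rep3 or Rep4, KO Rep5 or R47H Rep2 or Rep3. Psmb8 and Psmb9 also lay lower in WT Rep6 to Rep10 than in WT Rep1 to Rep5 (-0.29 to -0.22), without a call. Set directly against KO, R47H gave 0.21 to 0.26 for these 2 genes, and neither was called.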

How the results depend on the processing

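The fall of subunit genes in KO kept its direction in every alternative run, and its size moved most with the scale and the WT set. For KO against all WT libraries 29 genes were called with libraries rescaled to equal sums, 7 with a replicate block and 6 with WT Rep1 to Rep5 alone, beside 17. Among all tested genes 1987 fell with the block and 1993 with WT Rep1 to Rep5 alone, shares close to those of the subunit genes. The cap median was -0.23 with equal sums, -0.088 with the block and -0.088 with WT Rep1 to Rep5 alone. For KO against WT Rep1 to Rep5 the count was 6 without the filter on low values, 25 with equal sums, 17 with quantile normalization and 16 with only the groups compared, beside 10, and the cap median was -0.17 with equal sums. Without the filter 2242 of 23425 genes fell. Of 10843 genes, 3100 fell with equal sums, 2173 with quantile normalization and 2409 with only the groups compared. For R47H against all WT libraries 6 genes were called with equal sums (1 higher, 5 lower), 5 with quantile normalization (1 higher, 4 lower), 2 with the median ratio, 2 with the replicate block, 2 with WT Rep1 to Rep5 alone, 0 with WT Rep6 to Rep10 alone and 0 with library weights. With equal sums and quantile normalization the balance of calls was thus reversed. Among all tested genes 1013 rose and 1071 fell with quantile normalization. The cap median was -0.075 with equal sums. Against WT Rep6 to Rep10 in the model of 4 groups, R47H gave 8 calls with equal sums, 6 with quantile normalization, 1 with library weights and 0 with only the groups compared, and a cap median of -0.13 with equal sums. Among all tested genes 560 rose and 1824 fell there with equal sums, and 1075 rose and 1168 fell with quantile normalization. R47H against KO gave 8 calls with library weights and 13 with only these groups, where 2044 and 1981 of all tested genes were higher. The difference of own-set effects gave 2 calls with equal sums, where 795 of all tested genes were higher and 501 lower. The WT sets differed in 4 genes with equal sums, 3 with quantile normalization, 12 with library weights and 4 with only these sets. With the weights 1175 of all tested genes were higher and 1046 lower in WT Rep6 to Rep10. These numbers were 290 and 241 with equal sums, 432 and 351 with quantile normalization, and 735 and 694 with only these sets. Nfe2l1 in R47H against WT became -0.0024 with equal sums. Equal sums moved the median of all tested genes in R47H to -0.07 from 0.04, and in KO to -0.06 from 0.01. With equal sums 476 of all tested genes rose and 1824 fell in R47H, beside 1452 and 849 on the deposited scale, and 1999 rose and 3539 fell in KO, beside 3063 and 2573. The cause of the other changes was not tested.

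Leaving out each library in turn gave 12 to 18 calls for KO against WT, 4 to 13 for KO against WT Rep1 to Rep5, 1 to 4 for R47H against WT, 0 to 3 for R47H against WT Rep6 to Rep10, 14 to 26 for R47H against KO, 0 to 4 for the difference of own-set effects and 0 to 2 for the WT sets. The core medians ran from -0.20 to -0.12 and the cap medians from -0.16 to -0.13 for KO against WT, and from -0.02 to 0.13 and 0.01 to 0.09 for R47H against WT. Without R47H Rep4 (1 higher) and without R47H Rep5 (2 higher, 1 lower), the calls of R47H against WT Rep6 to Rep10 were reversed in balance.

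Replicate numbers did not pair the libraries: deviations of same-numbered libraries correlated at -0.25 to 0.34 between KO and WT, 0.02 to 0.22 between R47H and WT and -0.12 to 0.31 between R47H and KO, and at most 2 of 5 correlated best with their own number. With the replicate block R47H against KO gave 19 calls and KO against WT Rep1 to Rep5 gave 7. No paired analysis was possible for the other comparisons because WT Rep6 to Rep10 share no number with a mutant or with WT Rep1 to Rep5. With the block the KO calls against all WT libraries of Psma1 (adjusted p = 0.0619), Psma6, Psmb1, Psmc6 and Psmd5 were lost. Psma8 had the fewest fragments, 39 in its lowest library.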

Other observations

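The spread between replicates differed between cap and core genes. The median coefficient of variation over the 36 genes was 6.39% in KO, 10.9% in R47H and 7.26% in WT, beside 8.67%, 12.03% and 9.07% over all tested genes. Core genes varied more than cap genes in each group, with medians of 8.78% and 5.80% in KO, 14.4% and 8.75% in R47H, and 9.16% and 6.59% in WT, so the core medians lay slightly above those of all tested genes in KO and WT and further above in R47H, and the cap medians below. Psmd6, a lid subunit, had a coefficient of variation of 0.830% in KO, the lowest of the 10841 genes that had a value there. Psmd2, the base scaffold, had the lowest among subunit genes in WT, at 3.29%, and 0.442% in WT Rep1 to Rep5. These genes were picked after their values were seen. Genes on the same strand overlap some subunit genes in the annotation, and of those at a mean above 1 FPKQ, AW209491 overlaps Psma2 (5.69 FPKQ) and Gm15542 overlaps Psmd13 (6.98 FPKQ), so the levels of Psma2 and Psmd13 are less certain.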
